A study of Mus musculus with 12 samples.

Results

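Collagens are the main structural proteins of the extracellular matrix, each built from alpha chains that are wound around one another into a helix. Fibrillar chains form the cables of connective tissue, with type I collagen assembled from Col1a1 and Col1a2 chains and type III from Col3a1. Network-forming type IV chains make the sheet of basement membranes, which surrounds every adipocyte and blood vessel, and beaded filament type VI chains form the microfilaments around fat cells. In white fat the fibrillar chains come mostly from fibroblast-like stromal cells, and in liver from stellate cells and portal fibroblasts.

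The genes described here are the 44 genes of the array whose symbol consists of Col, a number, the letter a and a number, out of 22180 genes with a probe that carries 1 symbol. The symbol pattern uses no measured value. They fall into 11 fibrillar, 9 network-forming, 6 beaded filament, 9 fibril-associated, 4 transmembrane and 2 multiplexin genes, and 3 others. RNA of liver and of the epididymal and inguinal white fat depots, 3 tissues, was measured on Affymetrix mouse gene arrays in male Mgl2-DTR mice and age-matched male wild-type mice, with C57BL/6N given as the background strain of all samples. In Mgl2-DTR mice the receptor for diphtheria toxin is driven by Mgl2, the gene of the lectin CD301b, so that the toxin depletes CD301b-positive mononuclear phagocytes and could act on any other cell that expresses Mgl2. Both genotypes received the toxin, 500 ng per dose and mouse into the peritoneum at intervals of 3 days, and tissue was taken on day 10. There are 2 arrays for each tissue and genotype, 12 in all. The labels do not say beyond the word mouse that replicates were separate animals, so a p-value here reflects only how far these samples scatter, which may be partly technical.

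Mgl2 itself lay between 7.07 and 7.46 on the log2 scale in the wild-type fat arrays and between 4.12 and 4.72 in the Mgl2-DTR fat arrays, a difference of -3.12 in epididymal fat (limma adjusted p = 0.00376) and -2.80 in inguinal fat (limma adjusted p = 0.00199). In liver it lay between 4.03 and 4.59 in both genotypes. The adipocyte markers averaged 11.27 to 11.83 in the fat arrays against 6.41 to 6.63 in liver, and the hepatocyte markers 12.68 to 12.72 in liver against 4.92 to 6.27 in fat, so each tissue carried the markers of its label. Some arrays carried RNA of neighbouring tissue. Skeletal muscle markers averaged 10.63 in inguinal wild-type replicate 2 and 10.34 in inguinal Mgl2-DTR replicate 1 against 6.95 and 6.87 in the other inguinal arrays, so each genotype has 1 muscle-bearing array. Epididymal duct markers averaged 10.40 in epididymal Mgl2-DTR replicate 2 against 3.84 to 4.23 in all other arrays. In bulk tissue, fewer cells of a type and less RNA per cell cannot be told apart.

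A gene was tested when its mean log2 level over the 4 arrays of at least 1 tissue lay above 5.71, and 29 of the 44 collagen genes met this. Of these, 20 exceeded it in all 3 tissues, 5 in 2 tissues and 4 in 1 tissue. Just inside the limit lay Col2a1, the cartilage fibril chain, at 5.86 in liver, and Col7a1, the anchoring fibril chain of skin, at 5.98 in liver. Just outside lay Col25a1, a transmembrane collagen, at 5.71 in liver, and Col4a6, a basement membrane chain, at 5.55 in epididymal fat. The 15 untested genes are Col4a3, Col4a4, Col4a6, Col6a4, Col8a2, Col9a1, Col9a3, Col10a1, Col11a1, Col17a1, Col19a1, Col22a1, Col24a1, Col25a1 and Col28a1, among them chains known from cartilage, skin and kidney. A probe's level depends on the probe as well as on the RNA, so levels are compared between samples and not between genes.

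**Figure D1:**
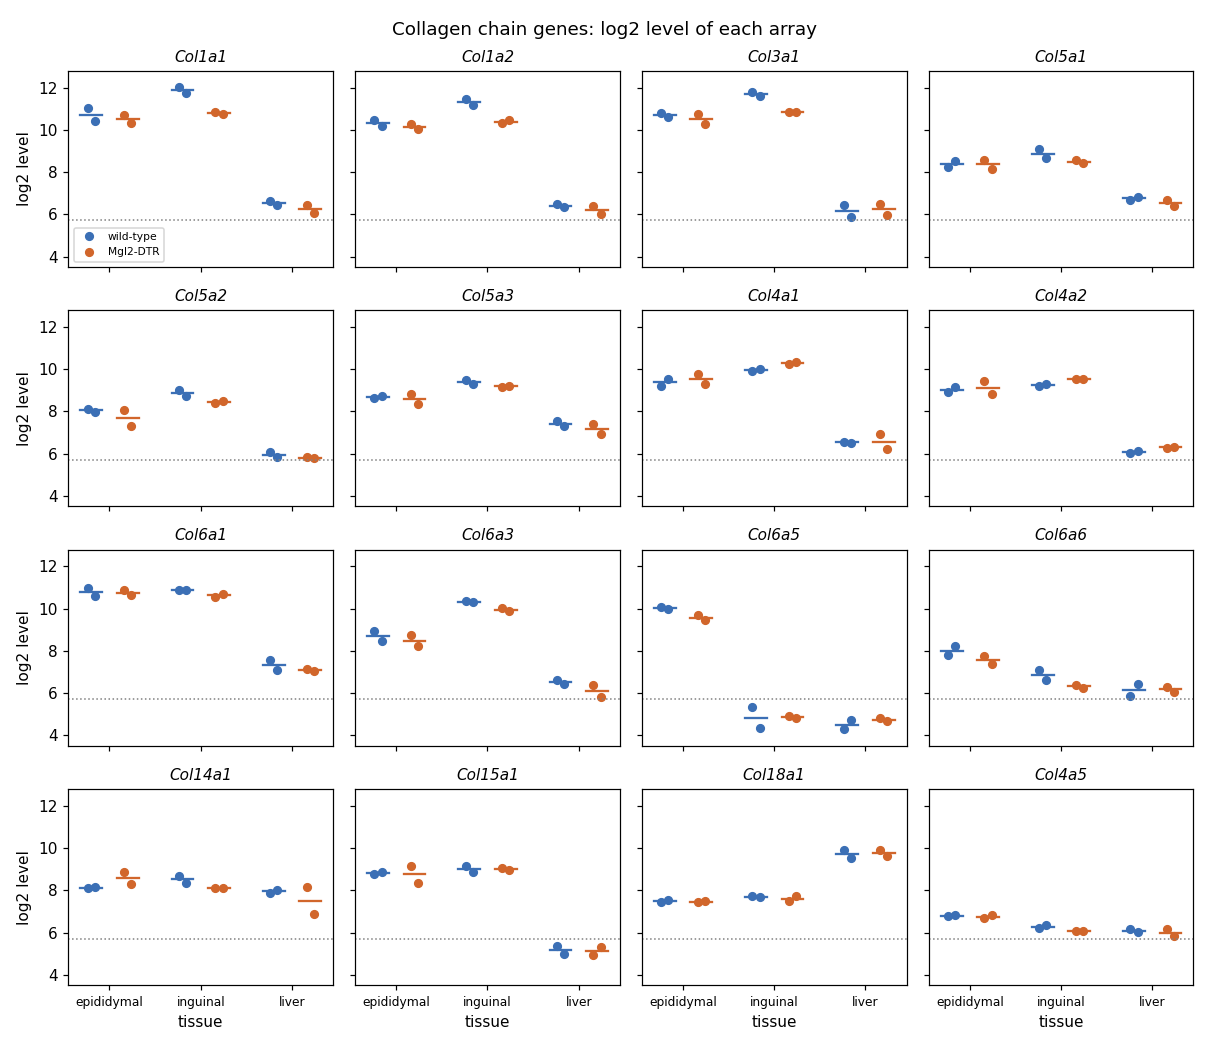
Log2 level of 16 collagen genes on each of the 12 arrays, by tissue and genotype, with the dotted line at the limit of 5.71. Col6a5 lies above the line in the 4 epididymal arrays alone, Col1a1, Col1a2 and Col3a1 are highest in the inguinal wild-type arrays, and Col18a1 is highest in liver.

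The fat depots were compared within each genotype first. For a gene tested only because it is high in 1 depot, such as Col6a5, the limit favours a difference between depots. The counts therefore do not describe all collagen genes. In wild-type mice 4 of the 29 tested genes differed between inguinal and epididymal fat by limma at an adjusted p under 0.05, with Col6a3, Col1a1 and Col1a2 higher in inguinal fat and Col6a5 lower. The same threshold was passed by 1.49% of all genes tested, 0.834% higher and 0.661% lower. In Mgl2-DTR mice 4 of 29 passed, Col6a3 higher and Col6a5, Col6a6 and Col4a5 lower, against 1.96% of all genes, 0.897% higher and 1.06% lower. Of the 23 collagen genes above the limit of 5.71 in both depots, 3 were called higher in wild-type mice, and 1 higher and 2 lower in Mgl2-DTR mice. The matching share of all genes above the limit in both depots was not computed, so these counts have no baseline. The wild-type arrays of the depots lay apart with inguinal fat higher for 18 collagen genes and lower for 3, against 20.8% and 25.9% of all genes. In Mgl2-DTR mice this held for 15 and 5 collagen genes, against 34.7% and 18.1%. The median inguinal minus epididymal difference of the tested collagen genes was 0.22 in wild-type mice, where that of all genes was -0.02, and 0.19 in Mgl2-DTR mice, where it was 0.07.

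Col6a5 showed the largest difference between depots among the 29 tested collagen genes. It encodes an alternative chain that can take the place of Col6a3 beside Col6a1 and Col6a2. Its log2 level was 10.10 and 10.00 in the epididymal wild-type arrays and 9.68 and 9.45 in the epididymal Mgl2-DTR arrays. In inguinal fat it was 5.33 and 4.35 in wild-type and 4.91 and 4.83 in Mgl2-DTR mice, and in liver it lay between 4.28 and 4.81. All 4 epididymal arrays lay far above every other array, and all 8 others lay below the limit of 5.71. The inguinal minus epididymal difference was -5.20 (SE 0.28) in wild-type and -4.69 (SE 0.28) in Mgl2-DTR mice, given as a description, since Col6a5 was tested only through epididymal fat. With the inguinal probe signal below the limit, these sizes are bounded by the dim end of the array's range. Mesothelial markers, of the cell layer that covers epididymal fat, averaged 7.44 to 8.38 in epididymal fat against 5.03 to 5.39 in inguinal fat and 5.29 to 5.50 in liver, and their part in the Col6a5 difference was not tested.

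Col6a6, another alternative type VI chain, pointed the same way with a smaller difference. Its level was 7.80 and 8.21 in epididymal wild-type, 7.74 and 7.38 in epididymal Mgl2-DTR, 7.10 and 6.62 in inguinal wild-type and 6.40 and 6.25 in inguinal Mgl2-DTR arrays. The depots did not overlap in either genotype. The difference was -1.15 (SE 0.25, limma adjusted p = 0.0616) in wild-type and -1.23 (SE 0.25, limma adjusted p = 0.0409) in Mgl2-DTR mice. The latter call was lost without any single Mgl2-DTR array and without either inguinal wild-type array. Col6a4, the remaining member of this group, was dim: 4.41, 4.73, 4.59 and 5.89 in epididymal fat, where only the duct-bearing array exceeded 5.71, and 4.43 to 4.64 in inguinal fat.

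In the RefSeq annotation of GRCm38.p6 the genes of these alternative chains are neighbours on chromosome 9, in the order Pik3r4, Col6a6, Col6a5, Col6a4, Glyctk among protein-coding genes. The 250 bases before the start of a transcript are shown for the called type VI genes because their RNA set the depots apart, with Col6a5 at chr9:105960644-105960893, Col6a6 at chr9:105828086-105828335 and Col6a3 at chr1:90843972-90844221, all on the minus strand. For Col6a5 the RefSeq gene model begins 1820 bases further upstream than this window's transcript, for Col6a6 161 bases and for Col6a3 30 bases. Capitals mark GGGCGG, the GC box, or its reverse complement CCGCCC.
Col6a5: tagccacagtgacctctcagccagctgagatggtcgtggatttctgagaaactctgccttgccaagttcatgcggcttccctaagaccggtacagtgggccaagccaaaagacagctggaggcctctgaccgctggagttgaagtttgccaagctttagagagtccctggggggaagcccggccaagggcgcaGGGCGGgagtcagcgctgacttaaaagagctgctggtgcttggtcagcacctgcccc
Col6a6: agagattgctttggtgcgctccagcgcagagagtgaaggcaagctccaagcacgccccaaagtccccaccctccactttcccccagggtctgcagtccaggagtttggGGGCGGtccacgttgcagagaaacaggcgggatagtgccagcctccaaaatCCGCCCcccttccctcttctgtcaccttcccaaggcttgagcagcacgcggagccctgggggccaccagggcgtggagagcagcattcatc
Col6a3: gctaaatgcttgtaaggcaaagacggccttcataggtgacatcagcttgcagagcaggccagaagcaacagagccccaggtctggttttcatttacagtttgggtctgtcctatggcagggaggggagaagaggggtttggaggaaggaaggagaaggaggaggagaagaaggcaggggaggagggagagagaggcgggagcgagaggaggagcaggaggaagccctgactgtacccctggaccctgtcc
Counted from the start site, GGGCGG lies at -57 to -52 in the Col6a5 window and at -142 to -137, with CCGCCC at -91 to -86, in the Col6a6 window. The Col6a3 window holds neither this motif nor CCAAT or TATAAA on either strand.

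Col6a3, the usual partner of Col6a1 and Col6a2 and the precursor of endotrophin, differed in the other direction. Its level was 10.37 and 10.31 in inguinal wild-type and 10.01 and 9.89 in inguinal Mgl2-DTR arrays, against 8.94 and 8.48 in epididymal wild-type and 8.74 and 8.21 in epididymal Mgl2-DTR arrays. All inguinal arrays lay above all epididymal ones. The difference was 1.62 (SE 0.24, limma adjusted p = 0.0106) in wild-type and 1.48 (SE 0.24, limma adjusted p = 0.0169) in Mgl2-DTR mice. The wild-type call was lost without inguinal wild-type replicate 1 (limma adjusted p = 0.0901) or replicate 2 (0.0708), and without both muscle-bearing arrays (0.118). The Mgl2-DTR call was lost without inguinal Mgl2-DTR replicate 1 (0.121) or replicate 2 (0.0943) or epididymal Mgl2-DTR replicate 2 (0.116), and without both muscle-bearing arrays (0.194), while the difference stayed between 1.21 and 1.65 in all of these.

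The shared type VI chains Col6a1 and Col6a2 differed little between depots. Col6a1 was 10.98 and 10.61 in epididymal and 10.89 and 10.90 in inguinal wild-type arrays, a difference of 0.10 (SE 0.19). Col6a2 was 9.53 and 9.33 against 9.63 and 9.70, a difference of 0.23 (SE 0.14). The arrays of the depots overlapped for Col6a1 and lay apart for Col6a2, and limma called neither.

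All 9 tested fibrillar genes had a higher mean in inguinal than in epididymal fat in wild-type mice, with differences of 0.19 to 1.15 and a median of 0.72. Col1a1 and Col1a2 passed the threshold, at 1.15 (SE 0.23, limma adjusted p = 0.0497) and 0.98 (SE 0.18, limma adjusted p = 0.034). Those that did not pass include Col3a1 at 0.97 (limma adjusted p = 0.101), Col5a2 at 0.83 (0.13), Col5a3 at 0.72 (0.139) and Col5a1 at 0.49 (0.275), the type V chains that start and size the fibrils. In Mgl2-DTR mice the differences of the 9 genes were 0.13 to 0.74 with a median of 0.31, and limma called none. The Col1a1 call was lost without any single array but epididymal wild-type replicate 1, and under 17 of 26 alternatives, with differences of 0.83 to 1.47. The Col1a2 call was lost under 11 of 26, among them leaving out any 1 inguinal or wild-type liver array, with differences of 0.83 to 1.15.

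Among type IV chains, Col4a5 was lower in inguinal fat. Its level was 6.77, 6.84, 6.69 and 6.81 in the epididymal arrays, against 6.20 and 6.37 in inguinal wild-type and 6.05 and 6.09 in inguinal Mgl2-DTR arrays, with no overlap of the depots. The difference was -0.52 (SE 0.14, limma adjusted p = 0.135) in wild-type and -0.69 (SE 0.14, limma adjusted p = 0.0477) in Mgl2-DTR mice. The latter call was lost without any single array but those of epididymal wild-type fat. Its partner Col4a6, which failed the limit, was 5.48 to 5.63 in epididymal and 4.63 to 5.0 in inguinal fat. In a fit without the limit its difference was -0.85 (SE 0.16, limma adjusted p = 0.0485) in wild-type and -0.72 (limma adjusted p = 0.0706) in Mgl2-DTR mice. Col4a5 and Col4a6 lie head to head on chromosome X, with starts 1343 bases apart in RefSeq.

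Col4a1 and Col4a2, the chains of the common type IV network, pointed the opposite way. Col4a1 was 9.22, 9.56, 9.76 and 9.30 in epididymal arrays and 9.94, 10.01, 10.27 and 10.34 in inguinal arrays, a difference of 0.58 (SE 0.24) in wild-type and 0.77 (SE 0.24) in Mgl2-DTR mice. For Col4a2 the differences were 0.22 and 0.42 (SE 0.19 each). The inguinal arrays of both genes lay above the epididymal arrays of the same genotype, and limma called none of these differences. In all, 23 of the 29 tested genes had the same sign of the depot difference in both genotypes, 20 above 0 and 3 below. The share of all genes with the same sign was not computed, so this count has no baseline.

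**Figure D2:**
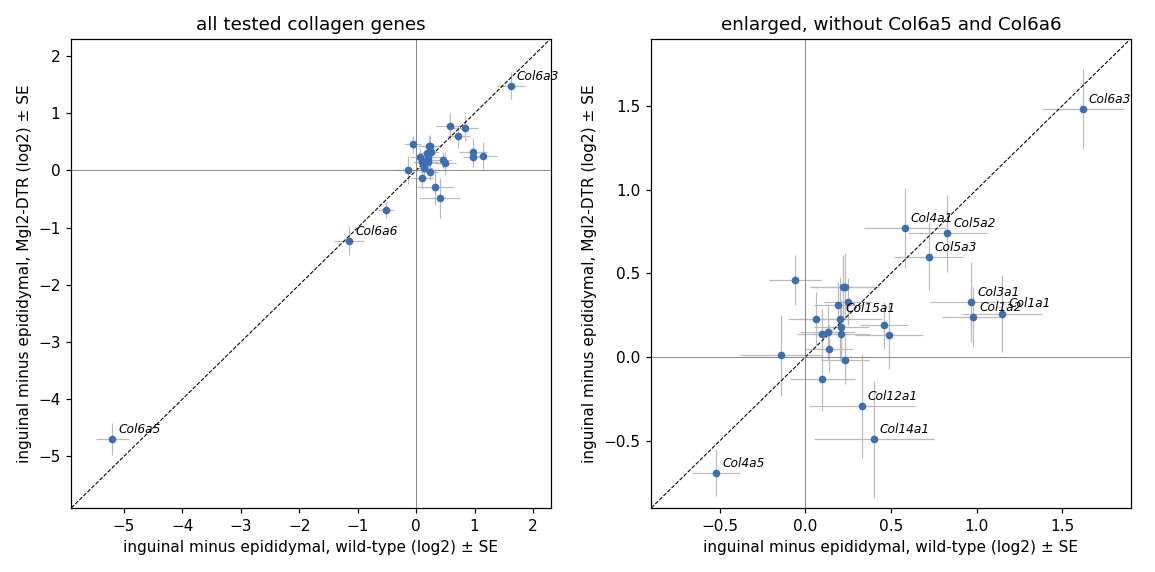
Inguinal minus epididymal log2 difference of the 29 tested collagen genes in wild-type mice (horizontal axis) and in Mgl2-DTR mice (vertical axis), all genes on the left and the crowded range enlarged on the right. Col6a5 lies alone at -5.20 and -4.69, Col6a3 at 1.62 and 1.48, and Col1a1 and Col1a2 lie below the line of equal difference.

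Depletion of CD301b-positive cells was then compared within inguinal fat. The fibrillar collagens of types I and III had lower levels in Mgl2-DTR than in wild-type mice, by 1.8-fold to 2.13-fold on the mean log2 scale, but limma called 0 of the 29 genes at an adjusted p under 0.05, where 0.197% of all genes passed. At an unadjusted p under 0.05 limma gave 4 of 29, Col1a1, Col1a2, Col3a1 and Col9a2, against 6.93% of all genes. The arrays lay apart with Mgl2-DTR lower for 12 collagen genes, or 41.4%, against 10.4% of all genes. They lay apart with Mgl2-DTR higher for 6 collagen genes, or 20.7%, against 36.5% of all genes. The median change of the tested collagen genes was -0.11 and that of all genes 0.10.

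Col1a1 was 12.01 and 11.74 in wild-type and 10.83 and 10.74 in Mgl2-DTR inguinal fat. Means were 11.87 ± 0.19 and 10.78 ± 0.062 (SD, n = 2 each), a difference of -1.09, or 2.13-fold lower (SE 0.23, limma adjusted p = 0.236). Both Mgl2-DTR arrays lay below both wild-type arrays by more than either group's spread. Col1a2, its partner in the type I molecule, was 11.45 and 11.18 against 10.33 and 10.45, with means of 11.32 ± 0.19 and 10.39 ± 0.084 (SD, n = 2 each). That is a difference of -0.93, or 1.9-fold lower (SE 0.18, limma adjusted p = 0.165). A second, dimmer probe of Col1a2 gave a difference of -1.20. Col3a1 was 11.80 and 11.60 against 10.85 and 10.86, a difference of -0.85, or 1.8-fold lower (SE 0.24, limma adjusted p = 0.547). None of the 3 genes overlapped between genotypes. Over 26 alternatives the differences stayed at -1.27 to -0.95 for Col1a1, -1.20 to -0.80 for Col1a2 and -0.95 to -0.75 for Col3a1. With array weights limma called Col1a1 (adjusted p = 0.041) and Col1a2 (adjusted p = 0.0408), though not in the unweighted fit.

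The windows before the Col1a2 and Col3a1 starts are shown because these fibrillar genes were among those with the largest inguinal differences. Col1a2 is at chr6:4505368-4505617 and Col3a1 at chr1:45311288-45311537 of GRCm38.p6, both on the plus strand. Capitals mark a CCAAT box (CCAAT), a GC box (GGGCGG) and a TATA box (TATAAA).
Col1a2: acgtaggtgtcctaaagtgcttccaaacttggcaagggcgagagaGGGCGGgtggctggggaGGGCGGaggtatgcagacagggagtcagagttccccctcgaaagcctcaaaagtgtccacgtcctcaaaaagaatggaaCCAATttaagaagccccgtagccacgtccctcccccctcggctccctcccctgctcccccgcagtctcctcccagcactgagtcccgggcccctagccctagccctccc
Col3a1: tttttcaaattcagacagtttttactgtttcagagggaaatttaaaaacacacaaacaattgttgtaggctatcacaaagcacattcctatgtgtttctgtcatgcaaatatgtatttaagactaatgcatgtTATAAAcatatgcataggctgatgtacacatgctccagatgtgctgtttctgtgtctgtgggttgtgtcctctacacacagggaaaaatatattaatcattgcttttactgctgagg
The Col1a2 window holds CCAAT at -109 to -105 and GGGCGG at -205 to -200 and at -188 to -183. The Col3a1 window holds TATAAA at -117 to -112. On either strand, CCAAT occurs in 34.2% of 38 windows of 35 collagen genes and in 33.8% of all 32851 windows. TATAAA occurs in 13.2% and 12.4%, and GGGCGG in 57.9% and 32.7%. No marked motif overlaps another in the windows shown, and a match of letters does not show that a factor binds.

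Without both muscle-bearing inguinal arrays, which leaves 1 array per genotype, the differences were -1.27 for Col1a1, -1.0 for Col1a2 and -0.94 for Col3a1. Col12a1, a fibril-associated collagen of tendon and muscle sheath, was 7.25 in the muscle-bearing wild-type array but 6.16 in the muscle-bearing Mgl2-DTR array. The other inguinal arrays were at 6.11 in wild-type and 6.24 in Mgl2-DTR mice. Pan-macrophage markers averaged 9.93 and 10.06 in wild-type and 8.20 and 8.83 in Mgl2-DTR inguinal arrays, with no overlap. Markers of fibroblast-like progenitors averaged 9.86 and 9.96 against 9.52 and 9.64, and endothelial markers 9.49 and 9.44 against 10.06 and 9.60. Their part in the collagen differences was not tested.

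The type V chains and the tested type VI chains other than Col6a5 were also at lower values, none of them called. Col5a1 was 9.08 and 8.68 in wild-type and 8.56 and 8.43 in Mgl2-DTR inguinal fat, a difference of -0.39 (SE 0.2), and a second probe of Col5a1 gave 0.06. Col5a2 differed by -0.44 (SE 0.23) and Col5a3 by -0.21 (SE 0.2). Col6a6 differed by -0.53 (SE 0.25), Col6a3 by -0.39 (SE 0.24), Col6a2 by -0.31 (SE 0.14) and Col6a1 by -0.26 (SE 0.19). The genotypes did not overlap for any of these genes, while Col6a5, dim in inguinal fat, differed by 0.03 and overlapped. The remaining non-overlapping lower genes were Col14a1, which coats fibrils, at -0.43 (SE 0.35), and Col4a5 at -0.22 (SE 0.14).

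The common basement membrane chains lay on the other side of 0. Col4a1 was 9.94 and 10.01 in wild-type and 10.27 and 10.34 in Mgl2-DTR inguinal fat, a difference of 0.33 (SE 0.24, limma adjusted p = 0.801). Col4a2 was 9.21 and 9.29 against 9.56 and 9.55, a difference of 0.30 (SE 0.19, limma adjusted p = 0.778). The arrays did not overlap for either, and the SE, which pools all 3 tissues, was wider than the spread within inguinal fat. The genes sit head to head on chromosome 8 with starts 21 bases apart in RefSeq. Without both muscle-bearing arrays the differences were 0.41 for Col4a1 and 0.34 for Col4a2. Col9a2, a cartilage fibril-associated chain, was 7.25 and 6.90 against 7.57 and 7.49, a difference of 0.45 (SE 0.15, limma adjusted p = 0.647). Col23a1, Col27a1 and Col7a1 were also non-overlapping and higher, by 0.16 to 0.23, near the median of 0.10 over all genes.

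**Figure D3:**
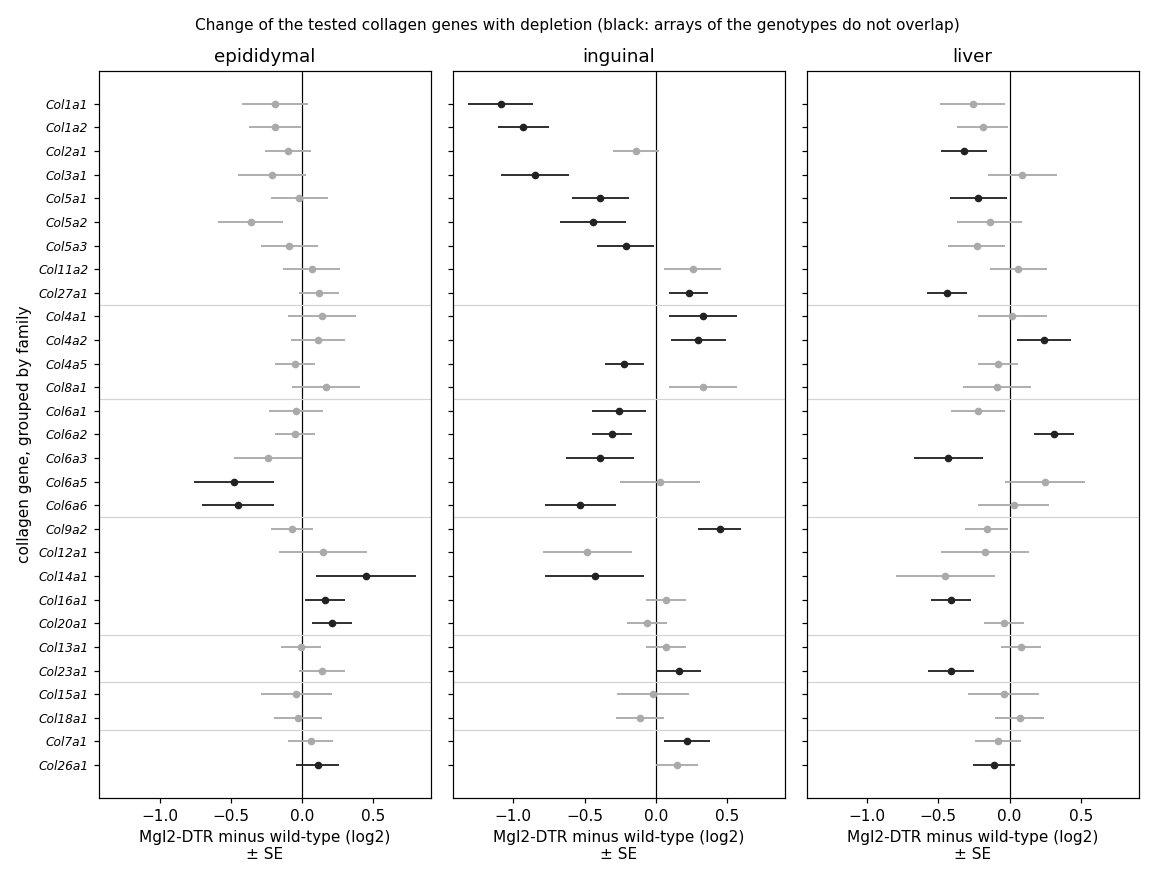
Mgl2-DTR minus wild-type log2 difference of the 29 tested collagen genes in each tissue, points with 1 SE of the limma fit, black where the arrays of the genotypes do not overlap. The lowest points are Col1a1, Col1a2 and Col3a1 in inguinal fat at -1.09, -0.93 and -0.85, and no difference passed an adjusted p under 0.05.

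In epididymal fat limma called 0 of the 29 collagen genes after depletion, where 0.0315% of all genes passed, and 0 collagen genes had an unadjusted p under 0.05, against 6.98% of all genes. The arrays lay apart with Mgl2-DTR higher for 4 collagen genes and lower for 2, against 14.8% and 14.7% of all genes. The median change was -0.03, and that of all genes 0.00. The 2 lower genes were Col6a5 at -0.48 (SE 0.28, limma adjusted p = 0.772) and Col6a6 at -0.45 (SE 0.25, limma adjusted p = 0.755). The Col6a6 value was -0.24 when epididymal wild-type replicate 2 was dropped, and -0.27 when the duct-bearing array was. With the duct-bearing array and wild-type replicate 1 both dropped, the Col6a5 value was -0.31. The higher ones were Col14a1 at 0.45 (SE 0.35), Col20a1 at 0.21, Col16a1 at 0.16 and Col26a1 at 0.11. Col1a1 was 11.05 and 10.40 in wild-type and 10.71 and 10.34 in Mgl2-DTR mice, so the genotypes overlapped, with a difference of -0.19 (SE 0.23). Col1a2 and Col3a1 differed by -0.19 and -0.21, and also overlapped. Col5a2 was 8.11, 7.99 and 8.06 in 3 arrays and 7.33 in the duct-bearing array. Its difference of -0.36 became 0.01 without that array and -0.72 without Mgl2-DTR replicate 1. Pan-macrophage markers averaged 10.92 in epididymal wild-type replicate 1 and 10.14 in replicate 2, against 9.55 and 9.29 in Mgl2-DTR mice, and their part in these values was not tested.

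The change in inguinal fat was set against that in epididymal fat in 1 model. Limma called 0 collagen genes for this difference of changes and 0% of all genes. At an unadjusted p under 0.05 limma gave 3 collagen genes, against 2.86% of all genes. For Col1a1 the inguinal minus the epididymal difference was -0.89 (SE 0.33, limma adjusted p = 0.995), and -0.57 without epididymal wild-type replicate 2. For Col1a2 the value was -0.74 (SE 0.26) and for Col9a2 0.52 (SE 0.22), which was 0.31 without both muscle-bearing arrays. A different response of the depots was therefore not established for any collagen gene. Averaged over both depots, the difference of Col1a1 was -0.64 (SE 0.17, limma adjusted p = 0.278), that of Col1a2 -0.56 (SE 0.13, limma adjusted p = 0.196) and that of Col3a1 -0.53 (limma adjusted p = 0.399). For this average limma called 0 of 29 collagen genes and 0.323% of all genes, and 5 collagen genes had an unadjusted p under 0.05, against 10.1% of all genes. Without epididymal wild-type replicate 2, limma called Col1a1 at -0.80 (adjusted p = 0.0177) and Col1a2 at -0.64 (adjusted p = 0.0314), while without epididymal wild-type replicate 1 and Mgl2-DTR replicate 2 together the Col1a1 value was -0.39.

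In liver limma called 0 of 29 collagen genes between the genotypes, against 0.0708% of all genes. An unadjusted p under 0.05 was given by limma for 3, against 5.53% of all genes. Mgl2 lay below the limit of 5.71 in every liver array. Unlike in fat, pan-macrophage markers were higher in Mgl2-DTR liver, at 9.04 and 8.99 against 8.52 and 8.39 in wild-type liver. Their part in the collagen values was not tested. The arrays lay apart with Mgl2-DTR lower for 7 collagen genes and higher for 2, against 15.2% and 19.2% of all genes. The median change was -0.11, and that of all genes 0.01. Col27a1, a fibrillar chain of cartilage, was 7.27 and 7.29 in wild-type and 6.94 and 6.74 in Mgl2-DTR liver, a difference of -0.44 (SE 0.14, limma adjusted p = 0.691). Col16a1 was 6.15 and 5.98 against 5.71 and 5.61, a difference of -0.41 (SE 0.14, limma adjusted p = 0.761). Col23a1, a transmembrane collagen, was 6.65 and 6.51 against 6.02 and 6.32, a difference of -0.41 (SE 0.16, limma adjusted p = 0.815), which was -0.27 without Mgl2-DTR replicate 1. The genotypes did not overlap for these genes, though Col16a1 and Col23a1 lay close to the limit of 5.71. Of the chains abundant in fat, Col6a3 at -0.43 (SE 0.24) and Col5a1 at -0.22 (SE 0.2) also lay apart and lower. Col6a2 at 0.31 (SE 0.14) and Col4a2 at 0.24 (SE 0.19) lay apart and higher. Col1a1 differed by -0.26 (SE 0.23), Col1a2 by -0.19 (SE 0.18) and Col3a1 by 0.09 (SE 0.24), with overlapping arrays in each case. Col14a1 was 7.89, 8.02 and 8.14 in 3 liver arrays and 6.88 in Mgl2-DTR replicate 2. That array also had the lowest liver mean of the tested collagen genes, 6.19 against 6.37 to 6.44. Its stellate cell markers averaged 7.55, against 7.88 to 8.32 in the other liver arrays. The part of these markers in the liver differences was not tested.

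Set against the mean change of both fat depots in the same model, the liver change differed for 0 of 29 collagen genes by limma, against 0.236% of all genes. At an unadjusted p under 0.05 limma gave 4, namely Col27a1 at -0.62 (SE 0.17, adjusted p = 0.33), Col16a1 at -0.52 (adjusted p = 0.458), Col23a1 at -0.56 (adjusted p = 0.477) and Col6a2 at 0.49 (adjusted p = 0.497), where 7.94% of all genes passed that level.

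Liver was then compared with the mean of both fat depots. Fat held far more RNA of Col1a1, Col1a2, Col3a1, Col6a1, Col6a2, Col6a3, Col4a1 and Col4a2, and liver more of Col18a1. In wild-type mice limma called 17 of 29 collagen genes lower in liver and 7 higher. Of all genes 57.1% were called, 34% lower and 23.2% higher. In Mgl2-DTR mice 20 were lower and 4 higher, where 53.6% of all genes were called, 33.7% lower and 19.9% higher. In both genotypes 17 genes were lower and 4 higher, Col18a1, Col9a2, Col11a2 and Col13a1. The share of all tested genes called in both genotypes was not computed, so the 17 and 4 have no baseline. Col11a2 and Col13a1 were dim, each with a mean of 6.08 over the liver arrays. By tissue mean, Col13a1 exceeded the limit in liver alone, and Col11a2 in liver and, at 5.72, in inguinal fat. For a gene tested only because it is high in 1 tissue the limit favours a difference, so these counts of called genes do not describe all collagen genes. Among the 20 above the limit in all 3 tissues, 13 were lower and 2 higher in both genotypes, where 26.5% and 15.2% of all genes above it in all 3 tissues were. Without the limit, 18 of 44 were lower and 10 higher in wild-type mice, against 19.7% and 20.1% of all genes. In Mgl2-DTR mice 19 were lower and 5 higher, against 19.2% and 13.6%.

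Type I and III chains gave the largest differences. Col3a1 was 6.42 and 5.89 in wild-type and 6.49 and 5.98 in Mgl2-DTR liver, far below the 10.28 to 11.80 of the fat arrays. Its liver minus fat difference was -5.06 (SE 0.21, limma adjusted p = 4.04e-08) in wild-type and -4.45 (limma adjusted p = 1.02e-07) in Mgl2-DTR mice. For Col1a1 the differences were -4.77 and -4.39, and for Col1a2 -4.42 and -4.05. The type V chains followed with -2.51 and -2.25 for Col5a2, and -1.63 and -1.71 for Col5a3. Col5a1 gave -1.88 and -1.89, but its second probe gave 0.37 and 0.18, so the probes of Col5a1 disagree in direction.

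The microfilament and basement membrane chains were lower in liver as well. Col6a1 differed by -3.52 and -3.59, Col6a2 by -3.60 and -3.12 and Col6a3 by -3.00 and -3.11 in wild-type and Mgl2-DTR mice. Col4a1 differed by -3.14 and -3.36 and Col4a2 by -3.06 and -3.03, while Col4a5 differed by only -0.47 and -0.42. For Col6a5 the values of -2.95 and -2.47 average 1 bright and 1 dim depot, and liver and inguinal fat were both below the limit. Col6a6 differed by -1.29 and -0.77.

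The multiplexins, basement membrane collagens with interrupted helices, went opposite ways. Col18a1, the precursor of endostatin, was 9.90 and 9.51 in wild-type and 9.93 and 9.61 in Mgl2-DTR liver. It was 7.44 to 7.53 in epididymal and 7.47 to 7.73 in inguinal fat, so every liver array lay above every fat array. The difference was 2.11 (SE 0.15, limma adjusted p = 1.95e-06) in wild-type and 2.25 (SE 0.15, limma adjusted p = 1.27e-06) in Mgl2-DTR mice. Col15a1 was 4.95 to 5.36 in liver, below the limit, and 8.37 to 9.16 in fat, with differences of -3.73 and -3.74. Col9a2 was 7.82, 7.89, 7.83 and 7.56 in liver, with differences of 0.75 and 0.40. Stellate cell markers averaged 7.55 to 8.32 in liver and 7.57 to 8.24 in fat, but the single markers went opposite ways. Lrat, Reln and Colec11 were higher in every liver array than in any fat array, and Des, Pdgfrb and Rgs5 were lower. Hgf and Ecm1 overlapped. The part of these markers in the collagen values was not tested.

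**Figure D4:**
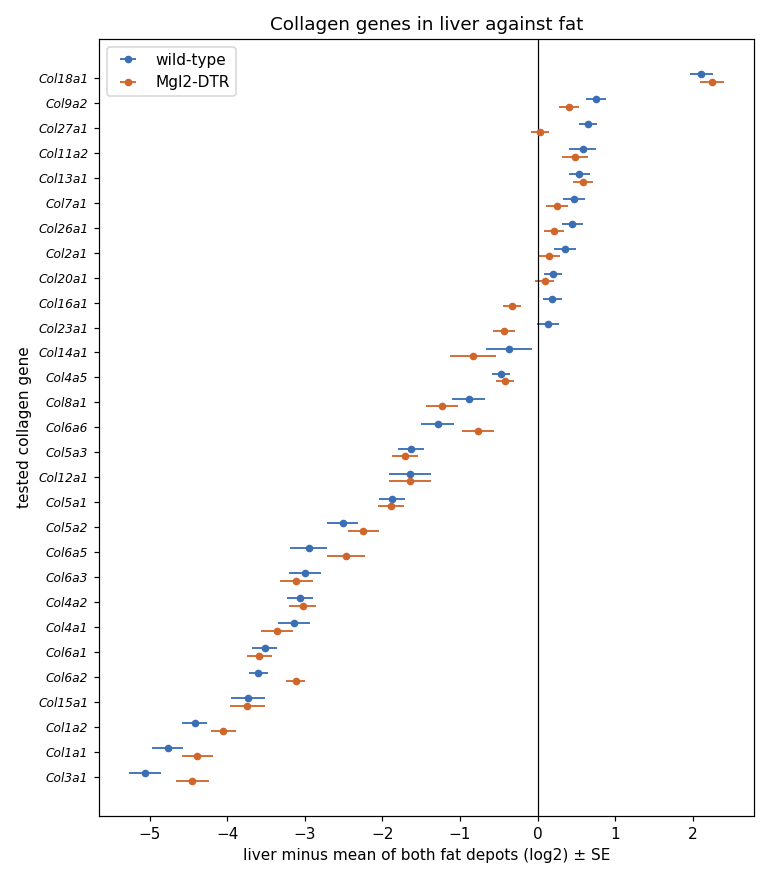
Liver minus mean fat log2 difference of the 29 tested collagen genes in wild-type and Mgl2-DTR mice, points with 1 SE of the limma fit. Col3a1 lies lowest at -5.06 and -4.45, and Col18a1 stands alone above 2 at 2.11 and 2.25.

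Genes that fold, process, bind, sense or degrade collagen, and those of the TGF-β pathway, which induces collagen genes, were examined beside the chains, 79 tested of 97 listed. After depletion limma called 0 of 79 in each tissue. At an unadjusted p under 0.05 it gave 4 in epididymal fat, 5 in inguinal fat and 4 in liver, each of 79. Of all genes, 6.98%, 6.93% and 5.53% passed that level in these tissues. In inguinal fat 45 of the 79 lay above 0 and 34 below. The median over all genes was 0.10 there, so most of all genes tested lay above 0 as well. Of 16 tested matrix partners 12 lay above 0, with Thbs1, a thrombospondin, at 1.05. Thbs1 was 7.47 and 9.67 in wild-type and 9.22 and 10.02 in Mgl2-DTR inguinal arrays, so the genotypes overlapped. Postn, which aids fibril assembly, was at -0.87 and fibronectin, Fn1, at -0.29. Of 14 tested TGF-β genes 10 lay above 0, with the signal transducers Smad3 at 0.43 and Smad2 at 0.16, and the ligand Tgfb2 at -0.54. Among folding enzymes Plod2, a lysyl hydroxylase, was at -0.80, Crtap at -0.29 and P4ha1, a prolyl hydroxylase chain, at -0.31. Among the proteases that trim procollagen Adamts14 was at -0.51, Bmp1 at -0.32 and Tll1 at 0.44. The proteoglycans with the smallest p were Aspn at -0.82, Prelp at 0.39 and Omd at -0.32. The receptors were Lair1, an inhibitory receptor of leukocytes, at -0.84, and the integrin chains Itga2 at 0.31 and Itga1 at 0.45. Among degrading enzymes and their inhibitors Mmp9 was at -1.30 (limma adjusted p = 0.297), Timp2 at -0.43 and Mmp2 at -0.46. In epididymal fat the largest of these lists' values with the smallest p were Lair1 at -0.96, Ctsk, a collagen-degrading cathepsin, at -0.92 and Thbs2 at 0.88. Ctsk was 9.99 and 8.29 in wild-type and 8.36 and 8.07 in Mgl2-DTR epididymal arrays, so the genotypes overlapped. In liver they were Itga11 at -0.87 (limma adjusted p = 0.346), Pcolce2 at 0.67 and Timp4 at -0.65. The median over the 79 genes was 0.05 in inguinal fat, 0.10 in epididymal fat and -0.05 in liver, beside 0.10, 0.00 and 0.01 over all genes.

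Between the depots, 5 of the 79 genes passed in wild-type mice, or 6.33%, and 6 in Mgl2-DTR mice, or 7.59%, against 1.49% and 1.96% of all genes. Pcolce, which enhances removal of the procollagen C-propeptide, was higher in inguinal fat by 0.86 (limma adjusted p = 0.0443) and 0.89 (0.035), and its relative Pcolce2 by 1.85 (0.00184) and 1.51 (0.00447). Mmp2, a gelatinase, was higher by 1.95 (0.00308) and 1.39 (0.0166), and Itga11, the integrin chain with which fibroblasts bind fibrillar collagen, by 1.01 (0.0368) and 0.99 (0.036). Fmod, which binds fibrils, was lower in inguinal fat, at -2.06 (0.0296) and -1.95 (0.0339). Tgfb2 passed in Mgl2-DTR mice at -1.08 (0.0331). The values in parentheses are limma adjusted p-values.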

How the data were processed

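The authors deposited 1 table of normalized log2 expression values, with 1 column per array. Per the submitters' processing notes limma was among their tools. The background correction, the normalization and the genome build are not given in the labels or headers used here. Array medians were 5.19 to 5.28. Of 41345 probes, 23521 carry 1 gene symbol, and each of 22180 genes was represented by its brightest probe, by the average of the 12 arrays. Genes above 5.71, the median of all single-symbol values, in the mean of at least 1 tissue were tested, 12710 in all. Group means were estimated with limma 3.58.1 (R 4.3.3) from the 12 arrays together, leaving 6 residual degrees of freedom per gene, and tests were moderated with eBayes and two-sided. The p-values were adjusted by Benjamini-Hochberg over the 12710 genes in each of 10 comparisons and called under 0.05. Only 2 arrays per group limit the precision. The fit was tested on simulated data. Array annotation was matched to RefSeq by Entrez identifier, which changed 0 symbols. Promoter sequences are RefSeq's for GRCm38.p6.

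The members and lists were chosen with earlier results of these data known. Genes named are those called, those with the smallest p where fewer passed, and members of the collagen families. Of the other lists, those called and the smallest p in each were eligible. Alternatives were no limit or a stricter one (7.57) on dim genes, other probes, normalization again, eBayes with trend, array weights, blocks, muscle as a covariate, tissues alone and leaving out arrays. The raw arrays were not used here.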

Additional observations from a re-analysis of the deposited data

How the results depend on the processing

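Of the 1365 recomputed values for 54 gene results, 1287 kept their direction and their side of the threshold, 69 kept the direction but no longer passed, 5 passed newly and 4 changed sign. The counts of called collagen genes for depletion in epididymal fat and in liver, for both differences of changes and for liver against fat kept within 1.5 times under every alternative run. For depletion in inguinal fat, limma called 0 collagen genes, but 2 with array weights and 1 with a replicate block. For the mean of both depots it called 0, and 0 to 2 when 1 array was left out. For the depots in wild-type mice it called 4, but 2 with array weights, 2 with the compared tissues alone, 1 with the muscle markers as a covariate, 1 without the 2 muscle-bearing arrays, and 1 to 4 when 1 array was left out. For the depots in Mgl2-DTR mice it called 4, but 2 without a filter, 2 after quantile normalization again, 2 with a replicate block, 2 with the compared tissues alone, 1 with the muscle markers as a covariate, 1 without the 2 muscle-bearing arrays, and 1 to 4 when 1 array was left out. Where an array left out leaves 1 sample in a group, that sample is assumed to vary like the others. The cause of these moves was not tested.

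Values that changed sign were Col5a2 after depletion in epididymal fat, -0.36, which became 0.07 without epididymal wild-type replicate 1 and Mgl2-DTR replicate 2 together, and -0.72 to 0.01 when 1 array was left out, and Col5a1 in liver against fat, which became 0.37 and 0.18 with its next brightest probe. Same-numbered arrays of both genotypes did not deviate together, with correlations of -0.12 to 0.12 over the array pairs, so the numbers were not taken as pairs. With the replicate block Col1a1 in inguinal fat was called at -1.09 (limma adjusted p = 0.0461), and the depot differences of Col6a6 and Col4a5 in Mgl2-DTR mice were no longer called (limma adjusted p = 0.0586 and 0.0689).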

Other observations

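Some dim collagen genes that were not tested still showed values that a reader of the main comparisons would not meet. Col28a1, a short-chain collagen known from peripheral nerve, was 4.94 and 4.86 in inguinal wild-type and 5.70 and 5.73 in inguinal Mgl2-DTR arrays, with no overlap and both kinds of muscle content among the high arrays. In the fit without a limit on dim genes its difference was 0.82 (SE 0.14, limma adjusted p = 0.112). It lay at 4.99 to 5.27 in epididymal fat and 4.44 to 4.59 in liver. Col6a4 at 5.89, Col4a4 at 5.72 and Col4a3 at 5.26 had their highest epididymal values in Mgl2-DTR replicate 2. That array had epididymal duct markers at 10.40 and epithelial markers at 8.16. Col4a3 was also at 5.26 in inguinal Mgl2-DTR replicate 1, where duct markers averaged 4.16. The part of duct tissue in these values was not tested.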
